A study of Mus musculus with 5 samples.

Results

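The proteasome is the protease complex that degrades ubiquitin-tagged proteins in the cytoplasm and nucleus. The values of 36 of its genes were followed here in spatial transcriptomes of the neonatal mouse heart. The 36 genes were chosen by symbol, as the subunits of the 20S core, the 19S regulatory particle, the inducible catalytic subunits and the 11S activator, and all 36 were listed in each of the 5 expression tables, among 13711 genes that the tables shared. Of the 36 genes, 7 were subunits of the 20S alpha ring (Psma1 to Psma7), 7 were constitutive subunits of the 20S beta ring (Psmb1 to Psmb7) and 3 were inducible beta subunits (Psmb8, Psmb9 and Psmb10). The 19S particle gave 9 subunits of its base (Psmc1 to Psmc6, Psmd1, Psmd2 and Psmd4) and 8 of its lid (Psmd3, Psmd6, Psmd7, Psmd8, Psmd11, Psmd12, Psmd13 and Psmd14), and the 11S activator gave 2 (Psme1 and Psme2). The 31 genes of the alpha ring, the constitutive beta ring, the base and the lid are called constitutive below.

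The sections came from wild-type C57BL/6 mice that had a myocardial infarction (MI) or a sham operation on postnatal day 1, when the study describes the mouse heart as able to regenerate. MI was produced by tying off the left anterior descending coronary artery. Hearts were cut transversely 200 µm below the suture (sham hearts at the equivalent level) 3 or 7 days after the operation. Day 3 had 1 sham and 1 MI section, and day 7 had 1 sham section and an MI pair (replicates 1 and 2). RNA was captured on Visium slides, a grid of barcoded spots each wide enough to cover several cells, and the 5 sections held 544, 960, 376, 693 and 791 spots in the order sham day 3, sham day 7, MI day 3, MI day 7 replicate 1 and MI day 7 replicate 2. Values below follow this order. The study calls the MI day 7 pair biologically independent, and every p-value below rests on the spread between so few sections.

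Levels are given as CPM, the value of a gene in a spot scaled so that the 13711 genes of every spot sum to the same total, averaged over the spots of a section or class. Replication was counted in sections, not in spots. Each spot also carried 11 cell type scores that sum to 1 and that the authors transferred from single-nucleus data, and a spot is called CM1-dominant, CM4-dominant and so on by its highest score. CM1 is the main cardiomyocyte population, and CM4 is the cardiomyocyte state that the study describes as proliferative and links to the factor Nrf1. FB, EC and EndoEC stand for fibroblast, endothelial and endocardial. The scores were made from the same expression values. In bulk spots, fewer cells of a type and less RNA per cell cannot be told apart.

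The sections differed in depth and make-up. The median raw UMI count per spot ran from 20842.5 in the sham day 3 section to 53940 in MI day 7 replicate 1. That replicate also had the largest mitochondrial share, 24.7% of the values, while the other 4 sections had 13.8% to 15.8%. Spots under 1000 UMIs numbered 1, 0, 11, 5 and 5. The sham day 3 table held raw UMI counts and the other 4 tables held depth-corrected counts, so a difference between the day 3 sections also crosses that line. The sum of 8 immune markers was 104, 113, 961, 172 and 266 CPM, and was therefore highest in the MI day 3 section.

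As background, the 20S core is a barrel in which alpha rings gate the entry and beta rings hold the proteolytic sites, carried by Psmb5, Psmb6 and Psmb7. The 19S particle recognises ubiquitin chains, removes them with its lid and unfolds the substrate with the ATPases of its base. In cells exposed to interferon gamma, and constitutively in many immune cells, Psmb8, Psmb9 and Psmb10 take the places of Psmb5, Psmb6 and Psmb7 in newly built cores. The resulting immunoproteasome cuts peptides suited to MHC class I. Psme1 and Psme2 form the ring-shaped 11S activator, which opens the core without ubiquitin or ATP. When proteasome capacity is short, the factor Nrf1 (gene Nfe2l1) raises the constitutive subunit genes together, through antioxidant-response-type elements in their promoters.

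In the genome (GRCm38, GENCODE annotation), the 36 genes lay on 14 chromosomes, and Psmb8 and Psmb9 were neighbours in the MHC. Psmb9 (ENSMUSG00000096727.3) lay at chr17:34181987-34187764 on the minus strand and Psmb8 (ENSMUSG00000024338.15) at chr17:34197721-34201454 on the plus strand. Between them lay Tap1, which encodes a subunit of the peptide transporter of class I loading, at chr17:34187553-34197225 on the plus strand. The annotated exons of Psmb9 and Tap1 overlapped by 212 bases on opposite strands, and Psmb8 began 496 bases after the end of Tap1. Psmb10 lay elsewhere, at chr8:105935735-105938444 on the minus strand. Exons of 10 of the 36 genes were overlapped by a gene on the other strand, and those of Psmd1 by the protein-coding gene Gm21972 on the same strand, so the reads of Psmd1 could have been split.

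RefSeq promoter windows of GRCm38.p6, from 250 bases before to 50 bases after a start site, were held for 30 of the 36 genes and were searched on both strands for 3 motifs. The interferon-type motif, a pair of GAAA runs separated by any 2 bases, was in 3.44% of all 32851 windows and in those of Psmb3, Psmd4 and Psme1. The GAS-type motif TTCNNNGAA, the form of element bound by STAT factors, was in 8.3% of all windows and in those of Psmb8 and Psmd2. The motif TGACNNNGC, the form bound by Nrf1 and its relatives, was in 12.4% of all windows and in those of Psmb5, Psmb6, Psmc6 and Psmd12. No window of these genes held more than 1 of the 3 motifs. The 5 stretches below, of 30 bases each and read 5′ to 3′ on the gene's strand with the match in capitals, are shown because the results turn on an inducible subunit (Psmb8), the constitutive subunits Psmb5, Psmb6 and Psmb3, and the 11S subunit Psme1.
Psmb8 (GAS-type, chr17:34198087-34198116, plus): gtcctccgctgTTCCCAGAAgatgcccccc
Psme1 (interferon-type, chr14:55578493-55578522, plus): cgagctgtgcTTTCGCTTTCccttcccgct
Psmb3 (interferon-type, chr11:97703261-97703290, plus): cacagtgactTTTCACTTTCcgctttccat
Psmb5 (Nrf1-type, chr14:54618024-54618053, minus): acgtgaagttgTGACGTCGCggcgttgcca
Psmb6 (Nrf1-type, chr11:70525337-70525366, plus): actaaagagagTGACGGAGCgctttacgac
The matches of Psmb8 and Psme1 lay inside 5′ untranslated sequence in the GENCODE annotation, which starts these genes elsewhere than RefSeq does. A match is a run of letters, not evidence of binding.

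The first comparison asked whether proteasome genes differed between MI and sham sections. Psmb8 and Psmb9 were at least 2-fold higher in the MI day 3 section than in any other section, while Psmb10, Psme1, Psme2 and the constitutive subunits were not. Psmb8, the inducible chymotrypsin-like subunit, had mean values of 5.65, 6.25, 19.6, 7.67 and 9.03 CPM. Psmb9, the inducible replacement of the caspase-like subunit, had 3.11, 3.36, 13.3, 3.81 and 2.76 CPM. For Psmb8 each of the 3 MI sections lay above both sham sections, and for Psmb9 MI day 7 replicate 2 was the lowest of the 5. Psmb10, the inducible counterpart of Psmb7, had 54.8, 57.0, 57.9, 45.8 and 60.7 CPM, so that MI day 7 replicates 1 and 2 were its lowest and highest sections. In the sham day 3 section, where raw counts were given, Psmb8 had 63 UMIs over all spots (exact Poisson 95% interval 48.4 to 80.6) and Psmb9 had 35 (24.4 to 48.7), intervals that cover counting error only.

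At day 3, with 1 section per group and therefore no test, the difference of MI minus sham on the log2(CPM + 1) scale was 1.63 for Psmb8, 1.79 for Psmb9, 0.08 for Psmb10, -0.18 for Psme1 and 0.06 for Psme2. The median over the 31 constitutive subunits was 0.00, with 17 of the 31 above 0, beside a median of 0.03 over 12933 genes. Psmb8 and Psmb9 were the only 2 of the 36 genes at least 2-fold higher in the MI day 3 section than in every other section, as were 2.12% of all genes. Without the 11 spots under 1000 UMIs, none of which was Macrophage-dominant, the MI day 3 values were 19.3 CPM for Psmb8 and 13.7 CPM for Psmb9.

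In the fit of MI against sham across both days, with day as a covariate and limma's moderated test, 0 of the 36 genes passed an adjusted p of 0.05, as 0.00773% of the 12933 genes tested did (1 gene). Psmb8 was the 1 member with an unadjusted p under 0.05, and no member was lower at that level. The fitted difference was 0.91 (SE 0.28, adjusted p = 0.487) for Psmb8, 0.75 (SE 0.39, adjusted p = 0.701) for Psmb9 and -0.03 (SE 0.15, adjusted p = 0.976) for Psmb10. The difference of Psmb9 rested on the MI day 3 section and became -0.036 without it. Without the sham day 7 section the same fit compares the day 3 sections with a spread taken from the MI day 7 pair, a lone section being assumed to vary like that pair, and both Psmb8 (1.63, adjusted p = 0.00094) and Psmb9 (1.79, adjusted p = 0.00131) passed, as 2.48% of all genes did in that direction. Psmb8 was 0.36 without either the sham or the MI section of day 3. Over the settings tried its adjusted p ran from 0.00094 to 1.00 and that of Psmb9 from 0.00131 to 1.00.

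At day 7, where the 2 MI sections stood against 1 sham section, 0 members passed either the adjusted threshold, as 0.232% of all genes did, or an unadjusted p of 0.05 in the limma fit. Psmb8 differed by 0.36 (SE 0.23, adjusted p = 1.00) and Psmb9 by -0.04 (SE 0.26, adjusted p = 1.00). Between days, day 7 minus day 3 within surgery, 0 members passed (0.595% of all genes did), and 2 had an unadjusted p under 0.05, both lower at day 7. These were Psmb9 (-0.96, SE 0.39, adjusted p = 0.189) and Psma5 (-0.29, SE 0.11, adjusted p = 0.184), an alpha-ring subunit with 104, 92.6, 117, 87.5 and 91.9 CPM. The all-gene median of this contrast was itself -0.18, and that of the 36 genes -0.05. Without either sham section Psmb8 (-1.15) and Psmb9 (-1.74) passed in this contrast, where the spread came from the MI day 7 pair and the lone sections were assumed to vary like it. In these fits 4.85% (without sham day 3) and 4.95% (without sham day 7) of all genes were called lower.

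**Figure D1:**
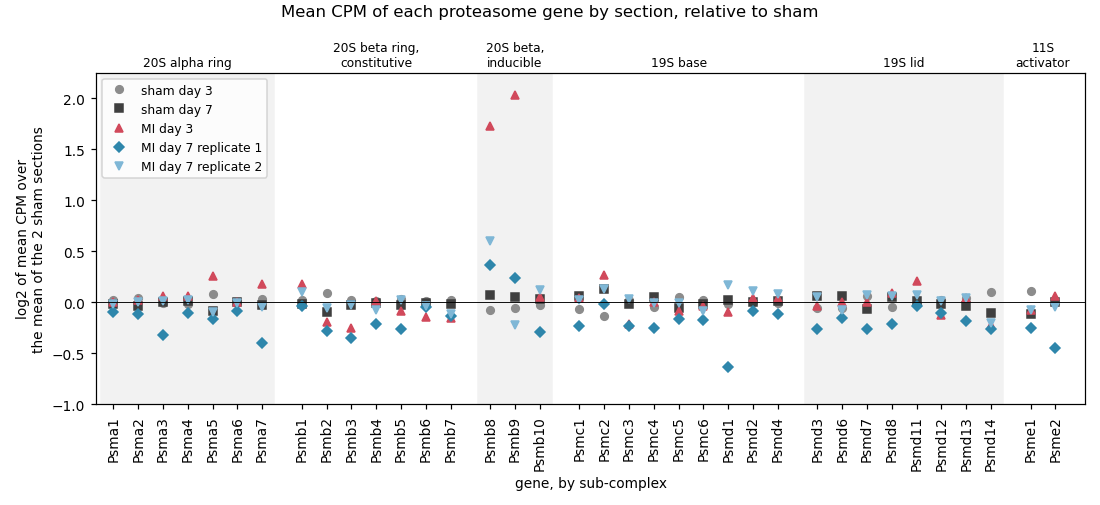
Mean CPM of each of the 36 genes in each section over the mean of the 2 sham sections, on a log2 axis, with genes grouped by sub-complex and 1 point per section. Psmb8 and Psmb9 in the MI day 3 section stand above the band in which the constitutive subunits lie, while Psmb10, Psme1 and Psme2 stay near 0.

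The constitutive subunits varied little between sections. The ratio of the highest to the lowest section ran from 1.06 for Psma6, an alpha-ring subunit, to 1.75 for Psmd1, the scaffold of the 19S base, beside 3.47 for Psmb8, 4.80 for Psmb9 and 1.33 for Psmb10. The summed CPM of the 7 alpha-ring genes was 1049, 1021, 1093, 906 and 1023, and that of the 7 constitutive beta-ring genes 1350, 1300, 1259, 1167 and 1302. The base summed to 854, 870, 854, 759 and 885 CPM and the lid to 668, 670, 667, 583 and 674 CPM. In each of these sums the lowest section was MI day 7 replicate 1, the section with the largest mitochondrial share. The MI to sham difference of the sums was -0.04 (alpha ring), -0.09 (constitutive beta ring), -0.05 (base) and -0.06 (lid) on the log2 scale, and each was smaller than the SD of the MI day 7 pair, which was 0.11 to 0.16.

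By gene, the fitted differences of MI against sham across days were small and mostly below 0. The median was -0.02 over the alpha ring, -0.10 over the constitutive beta ring, -0.08 over the base and -0.05 over the lid, beside -0.01 over all genes. The members with the most negative differences did not pass the test. Psmb3, a structural beta subunit, had 190, 183, 157, 146 and 182 CPM (-0.21, SE 0.13, adjusted p = 0.751). Psmd14, the lid's deubiquitinase, had 79.0, 68.5, 63.0, 61.4 and 64.0 CPM (-0.21, SE 0.11, adjusted p = 0.705). Psmd1 had 39.3, 40.3, 37.3, 25.7 and 44.8 CPM (-0.17, SE 0.23, adjusted p = 0.892), its 2 MI day 7 sections being its lowest and highest. Psmc2, an ATPase of the base, had the largest positive difference of that group (0.13), with 68.8, 82.9, 91.3, 74.7 and 83.2 CPM. Psmb1 led the constitutive beta ring in the positive direction (0.10) and Psmd11, a lid scaffold, the lid (0.09).

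Every MI section lay below both sham sections for 5 members, Psmb3, Psmb6, Psmb7, Psmc6 and Psmd14, as for 9.6% of all genes. Every MI section lay above both sham sections for 1 member, Psmb8, as for 6.84% of all genes. Psmb7, which carries the trypsin-like site, had 163, 159, 145, 147 and 148 CPM. Psmb6, which carries the caspase-like site, had 184, 182, 165, 177 and 178 CPM. In both the gap to the sham sections was a small part of the level.

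The inducible share of the core was described by ratios of levels, each taken within a section. The summed CPM of Psmb8, Psmb9 and Psmb10 was 12.1%, 12.9%, 19.1%, 12.1% and 14.3% of the summed CPM of Psmb5, Psmb6 and Psmb7. Psmb10 made up most of the numerator, so the sum moved less than the single pairs. Psmb8 over Psmb5, the chymotrypsin-like pair, was 3.13%, 3.59%, 11.8%, 5.19% and 5.02%. Psmb9 over Psmb6 was 1.69%, 1.85%, 8.04%, 2.15% and 1.55%, and Psmb10 over Psmb7 was 33.6%, 35.8%, 39.9%, 31.1% and 40.9%. From sham to MI at day 3 the ratio was thus 3.77-fold higher for the first pair, 4.74-fold for the second and 1.19-fold for the third. The inducible subunits did not move as a set of 3: the level of Psmb10 in the MI day 3 section lay within the range of the other sections. These are ratios of RNA values and not of assembled particles.

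The 11S activator likewise did not follow Psmb8 and Psmb9. Psme1 had 194, 165, 171, 150 and 170 CPM (MI against sham across days -0.10, SE 0.12, adjusted p = 0.866). Psme2 had 52.9, 53.1, 55.3, 38.8 and 51.2 CPM (-0.12, SE 0.16, adjusted p = 0.897). Psme2 has a near-identical copy, Psme2b, listed at 1.72 to 3.17 CPM, so its reads may have been split. The summed 11S level was 23.5%, 21.4%, 20.7%, 20.9% and 21.6% of that of the alpha ring, and the 19S genes together held 63.5%, 66.4%, 64.7%, 64.7% and 67.0% of the summed level of the constitutive 20S genes. The alpha ring held 77.7%, 78.5%, 86.8%, 77.7% and 78.6% of the summed level of the constitutive beta ring, highest in the MI day 3 section.

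Other genes of the pathway were counted in the same fit. Of 16 further proteasome genes (assembly chaperones, alternative activators and minor subunits), 0 passed in either direction across days, with a median of -0.07, and the same was true of 6 genes for Nrf1, its relatives and the enzymes that activate them (median 0.06) and of 8 genes for ubiquitin supply and shuttling (median -0.01). At an unadjusted p of 0.05 the limma counts were 1 lower of 16, 0 of 6 and 1 higher of 8. Nfe2l1 had 98.6, 101, 108, 105 and 111 CPM. Of 7 genes of class I presentation 0 passed, 4 had an unadjusted p under 0.05, and all 7 had a difference above 0 (median 0.72). Among the 7 were Tap1, with 6.14, 5.68, 15.7, 7.05 and 7.99 CPM, and B2m, the class I light chain, with 185, 169, 583, 198 and 182 CPM. Irf1, an interferon-response factor, had 8.13, 7.79, 18.0, 9.83 and 10.1 CPM. All of these were highest in the MI day 3 section.

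The next comparison placed the subunits by dominant score class. In the MI day 3 section Psmb8 had 67.5 CPM in the 20 Macrophage-dominant spots, 38.6 in the 22 FB-dominant, 27.0 in the 22 EC-dominant, 19.8 in the 40 CM4-dominant, 14.3 in the 211 CM1-dominant and 13.6 in the 32 EndoEC-dominant spots. Psmb9 had 50.6, 19.6, 13.02, 17.6, 9.48 and 16.4 CPM in the same classes. In each of these 6 classes the MI day 3 section was the highest of the sections that held the class, for 3 members, Psmb8, Psmb9 and the alpha-ring subunit Psma7, as for 6.29% of all genes. The difference was therefore not restricted to the Macrophage-dominant spots. CM1-dominant spots had 4.84, 5.44, 14.3, 5.46 and 6.02 CPM of Psmb8 and 3.56, 2.93, 9.48, 3.41 and 2.53 CPM of Psmb9.

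In the MI day 3 section immune markers were also highest in Macrophage-dominant spots, but the other classes were not in the same order. Lyz2, 1 of the 8 markers, lay above its CM1-dominant value there by 2.11 in CM4-, 0.63 in EC- and 0.79 in EndoEC-dominant spots (log2 scale). Psmb8 was higher in EC- than in CM4-dominant spots and lowest in EndoEC-dominant spots. The sum of the 8 immune markers in CM1-dominant spots was 62.0, 74.4, 292, 126 and 95.9 CPM, and in the MI day 3 section it was 9138 CPM in Macrophage-dominant and 1755 CPM in FB-dominant spots. CM1-dominant spots in which this sum was under 100 CPM numbered 189, 284, 38, 163 and 351, with marker sums of 27.4, 35.7, 70.6, 62.9 and 46.1 CPM. In these spots Psmb8 had 5.09, 5.06, 12.1, 4.21 and 5.85 CPM and Psmb9 had 3.32, 2.73, 10.5, 2.73 and 2.73 CPM. The MI day 3 section was again the highest in both and also had the highest marker sum. Its 38 spots were 19% of its CM1-dominant spots with at least 1000 UMIs, against 48.4% to 77.5% in the other sections. B2m in the low-marker spots had 166, 147, 385, 154 and 151 CPM, and the part of immune cells in these levels was not tested. Psmb10 in the same spots had 57.4, 56.4, 50.9, 37.5 and 55.7 CPM, and there the MI day 3 section was the second lowest.

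The ratio of the inducible to the constitutive catalytic sum in the MI day 3 section was 45.4% in Macrophage-dominant, 29.0% in FB-dominant, 19.3% in CM4-dominant, 17.9% in EndoEC-dominant, 16.8% in CM1-dominant and 16.7% in EC-dominant spots. Macrophage-dominant spots had 54.3% for Psmb8 over Psmb5, 24.6% for Psmb9 over Psmb6 and 73.4% for Psmb10 over Psmb7. In the same spots Psmb10 had 82.6 CPM, the highest of its classes in that section, while of the constitutive partners Psmb5 (124 CPM) and Psmb7 (113 CPM) had their lowest class value there and Psmb6 (205 CPM) its highest. Macrophage-dominant spots of the other sections showed no such ratio. There Psmb8 was 3.697 CPM (sham day 3), 12.3 (sham day 7) and 4.49 (MI day 7 replicate 1), and immune marker sums were 330, 341 and 550 CPM. MI day 7 replicate 2 had only 13 such spots and was left out of this class. Cardiomyocyte markers in the Macrophage-dominant spots of the MI day 3 section summed to 16940 CPM, against 35818 CPM in its CM1-dominant spots, so these spots held both.

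**Figure D2:**
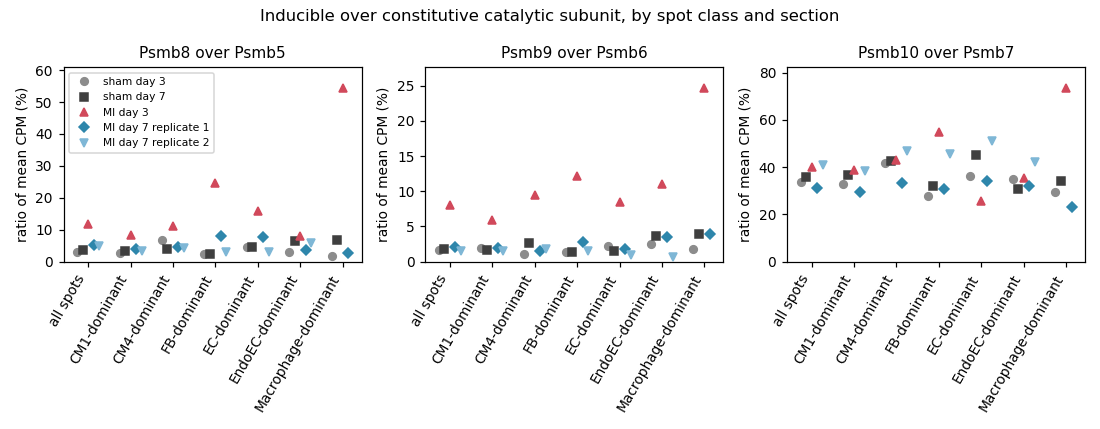
Ratio of mean CPM, in percent, of the inducible to the constitutive catalytic subunits over all spots and by dominant score class, with 1 point per section and 1 panel for each replacement pair. The MI day 3 point is the highest in the Macrophage- and FB-dominant classes for Psmb8 over Psmb5 (54.3% and 24.7%) and for Psmb9 over Psmb6 (24.6% and 12.2%).

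Position in the MI day 3 section was described by distance from the Macrophage-dominant spots, over the 365 spots with at least 1000 UMIs. From those 20 spots through the 30 spots next to one and the 57 spots up to 3 spot spacings away to the 258 spots farther off, Psmb8 was 67.5, 31.04, 20.8 and 13.9 CPM. Psmb9 was 50.6, 22.5, 11.3 and 10.3 CPM. Both were lower at each step, and the farthest spots still held more than any whole section of the other 4.

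The constitutive sum over the same steps was 3975, 3920, 3825 and 3868 CPM and Psmb10 was 82.6, 55.3, 57.9 and 56.1 CPM. The immune marker sum was 9138, 1938, 684 and 293 CPM and the median raw UMI count per spot was 37818.5, 38137, 41582 and 32630. Tap1 (45.7, 27.9, 10.8 and 13.2 CPM) and B2m (1803, 921, 596 and 448 CPM) also had their highest values at the Macrophage-dominant spots. The share of spots with any Psmb8 value above 0 was 90%, 53.3%, 57.9% and 36.4%. In the sham day 3 section the same steps gave 3.697, 4.02, 5.33 and 7.74 CPM of Psmb8, in the sham day 7 section 12.3, 6.25, 5.41 and 6.01, and in MI day 7 replicate 1 4.49, 6.82, 6.26 and 8.62, which were not in that order. Psmb9 had 3.73, 3.199, 3.15 and 2.92 CPM over the steps of the sham day 3 section, 6.83, 2.98, 2.73 and 5.10 in the sham day 7 section and 7.10, 5.36, 3.245 and 3.64 in MI day 7 replicate 1. Psmb9 was therefore highest at the Macrophage-dominant spots in each of the 4 sections with at least 20 such spots. Outside the MI day 3 section these values were near the floor. Psmb9 was above 0 in 7.69% of these spots in sham day 3 (7.02% next to one), 12.9% in sham day 7 and 33.3% in MI day 7 replicate 1. Over all spots of these sections its Spearman's rho with the Macrophage score was 0.05, 0.07 and 0.003, spots under 1000 UMIs left out.

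**Figure D3:**
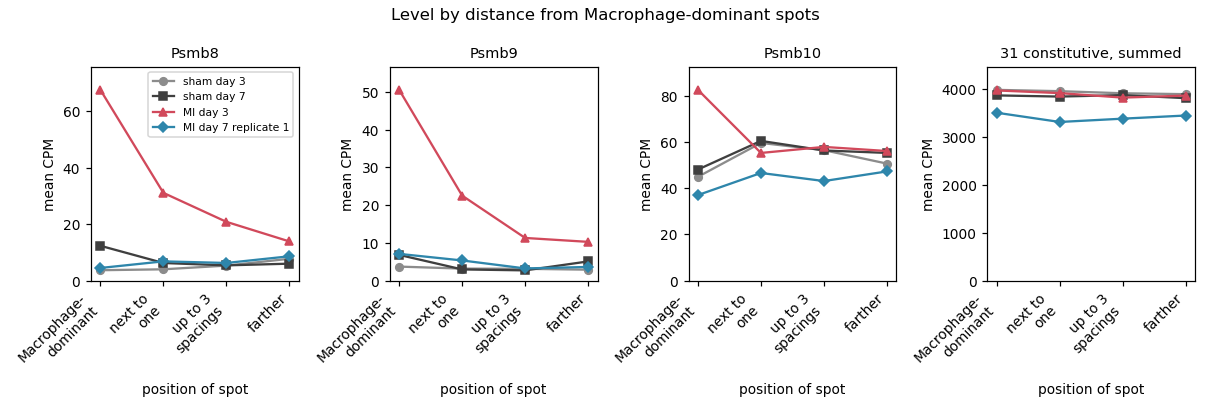
Mean CPM of Psmb8, Psmb9, Psmb10 and the summed constitutive subunits in Macrophage-dominant spots, spots next to one, spots up to 3 spacings away and farther spots, with 1 line per section. In the MI day 3 section Psmb8 and Psmb9 run from 67.5 and 50.6 CPM down to 13.9 and 10.3 CPM while the constitutive sum stays between 3825 and 3975 CPM.

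Across the 365 spots, which share a section, a depth correction and the scaling total, Spearman's rho of Psmb8 was 0.27 with the immune marker sum, 0.30 with the Macrophage score and 0.31 with the summed class I genes. For Psmb9 these were 0.20, 0.23 and 0.23, and for Psmb10 0.06, 0.08 and 0.09. These are weak relations in sparse values, since 44.1% of the spots had any Psmb8 and 33.2% any Psmb9. In the other 4 sections the rho of Psmb8 with the immune markers was between -0.04 and 0.13. Moran's I is near 0 for a random layout of spots and near 1 for a strongly clustered one. Unlike the rho, it was computed over all spots, those under 1000 UMIs included (376 in the MI day 3 section). In that section it was 0.18 for Psmb8 and 0.10 for Psmb9. Psmb8 had 0.17 in MI day 7 replicate 2 and at most 0.03 elsewhere. In the MI day 3 section the macrophage gene Lyz2 had 0.62 and the collagen gene Col1a1 0.72. The constitutive subunits were not spatially flat. Their sum had 0.17, 0.07, 0.40, 0.26 and 0.21, above the inducible sum in each section (-0.0006, 0.02, 0.20, 0.05 and 0.13). Of single constitutive genes in the MI day 3 section, only Psmb4 (0.13) lay above Psmb9. Psmb5, Psmb6 and Psmb7 had -0.02, -0.02 and 0.01 there.

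**Figure D4:**
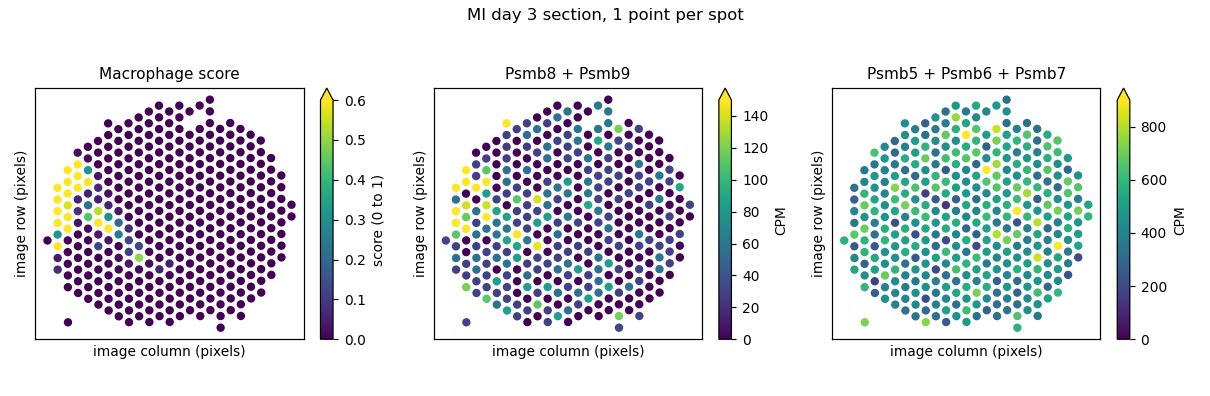
The 365 spots of the MI day 3 section with at least 1000 UMIs at their image positions, 1 point per spot, coloured by Macrophage score, summed Psmb8 and Psmb9 and summed Psmb5, Psmb6 and Psmb7 (CPM, with the highest values capped). Spots with high Psmb8 and Psmb9 are densest where the Macrophage score is high and also occur singly elsewhere, while the constitutive catalytic sum shows no such area.

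CM4-dominant spots were compared with CM1-dominant spots because the study ties CM4 to Nrf1, a regulator of the constitutive subunits. From single-nucleus data the study also reports high expression of selected proteasome subunit genes in CM4 cells. That is a measure of single nuclei, whereas the spots here mix several cells. With the section as a block, 0 of the 36 genes passed in the limma fit, as 1.15% of 13285 genes did (0.387% higher and 0.0073% lower in 1 fit over all classes, again with 0 members). At an unadjusted p of 0.05, for which no all-gene share is given, 2 members were higher and 2 lower. The median difference was 0.02, beside 0.06 over all genes, and Psme1 (-0.23, SE 0.086, adjusted p = 0.256) and Psmb10 (0.27, SE 0.10, adjusted p = 0.251) had the smallest unadjusted p-values. Psme1 had 161, 141, 134, 154 and 158 CPM in CM4-dominant and 201, 167, 180, 152 and 178 CPM in CM1-dominant spots, lower in 4 of 5 sections. Psmb10 had 68.7, 67.2, 59.9, 52.4 and 78.6 CPM against 56.8, 59.1, 56.2, 41.0 and 56.4 CPM, higher in 5 of 5. Psmb8 (0.45, SE 0.21, adjusted p = 0.410) was also higher in 5 of 5. The constitutive medians were -0.06 for the alpha ring, 0.02 for the beta ring, 0.01 for the base and 0.04 for the lid.

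Fibroblast and immune markers were also higher in CM4-dominant spots, while endothelial markers were not. By section Fabp4 differed by -0.08, -0.12, -0.66, 0.11 and -0.005 and Cdh5 by 0.02, -0.20, -0.52, 0.18 and -0.01 (log2 scale). The endothelial markers Kdr and Pecam1 also lay on both sides of 0. Of 6 fibroblast markers 5 were called higher and all 6 lay above 0 (median 0.77), and of 8 immune markers 3 were called and all 8 lay above 0 (median 0.59). The immune marker sum was 103, 95.9, 1049, 165 and 213 CPM in CM4-dominant spots against 62.0, 74.4, 292, 126 and 95.9 CPM in CM1-dominant spots, and the fibroblast marker sum ran from 4161 to 8171 CPM against 2625 to 4007 CPM. The 6 cardiomyocyte markers all lay below 0 (median -0.20), with 0 called. The part of these markers in the differences of Psmb8, Psmb10 and Psme1 was not tested.

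The median difference between CM4- and CM1-dominant spots changed its sign between sham and MI sections over the constitutive subunits, and so it did over all genes. The median over the 31 constitutive subunits was -0.17, -0.14, 0.09, 0.16 and 0.05 in the 5 sections, with 5, 5, 20, 28 and 24 of the 31 above 0. The median over all genes was -0.10, -0.09, 0.18, 0.20 and 0.18, so that the subunits lay below the all-gene median in each section. Their difference below 0 in both sham sections and above 0 in all 3 MI sections held for 12 members, as for 15.8% of all genes. The change itself was tested as MI minus sham of the CM4 minus CM1 difference. That test was passed by 0 of the 36 genes (1.73% of all genes passed). In it 9 members had an unadjusted p under 0.05, all above 0, the side on which the all-gene median also lay. The median change was 0.23 over the 36 genes, beside 0.28 over all genes. In the same test 2 of 3 erythroid markers were called lower (median -1.75), and 7 of 8 immune markers lay above 0 with 1 called (median 0.61). The erythroid marker sum was 3653, 8287, 2046, 3266 and 4469 CPM in CM4-dominant against 1461, 2362, 3928, 2898 and 3885 CPM in CM1-dominant spots. The part of these cells in the change of the subunits was not tested.

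The members nearest to the threshold in that test were Psmd8, a lid subunit (0.48, SE 0.14, adjusted p = 0.0777), and Psma1, an alpha-ring subunit (0.48, SE 0.14, adjusted p = 0.0786). Psmd8 had 113, 144, 178, 144 and 171 CPM in CM4-dominant against 151, 153, 146, 120 and 154 CPM in CM1-dominant spots. Psma1 had 104, 108, 143, 138 and 135 CPM against 137, 133, 125, 119 and 136 CPM. Psmd8 thus lay lower in CM4-dominant spots of both sham sections and higher in those of all MI sections, and Psma1 did so except in MI day 7 replicate 2, where the classes were nearly equal. The direction of the median over the 31 constitutive subunits depended on the scaling, which shifts all genes of a profile together. With median-of-ratios scaling it was -0.05, with 10 of the 31 above 0. With mitochondrial and haemoglobin genes left out of the total it was 0.02, with 18 of the 31 above 0. In the test of the change, 1.58% of all genes were called higher and 0.151% lower as scaled here. With median of ratios these shares were 0.151% and 0.257%. The medians are of the set, not of Psmd8 or Psma1.

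**Figure D5:**
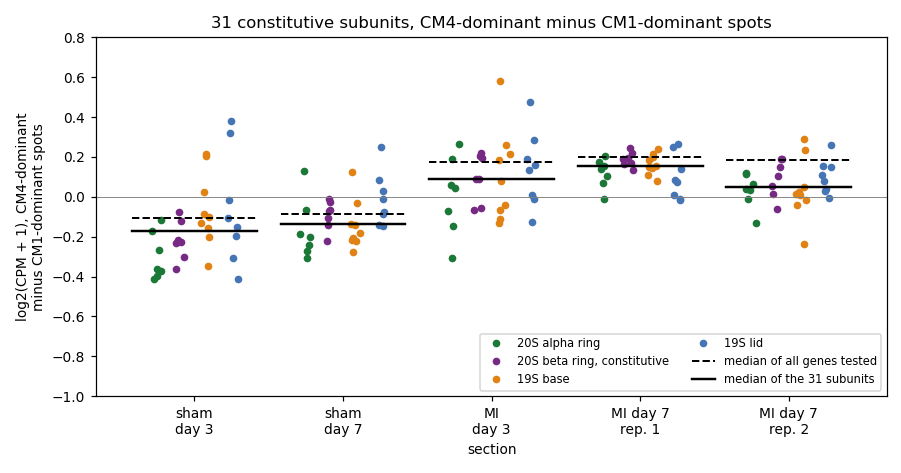
Difference in log2(CPM + 1) between CM4-dominant and CM1-dominant spots for the 31 constitutive subunits in each section, with 1 point per gene and the medians of the subunits and of all genes marked. The subunit medians are -0.17 and -0.14 after sham surgery and 0.09, 0.16 and 0.05 after MI, and the all-gene medians change sign with them.

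FB-dominant spots differed from CM1-dominant spots over much of the transcriptome, and 1 proteasome gene passed. Psma2, an alpha-ring subunit, had 169, 161, 211, 163 and 173 CPM in FB-dominant and 155, 142, 146, 132 and 147 CPM in CM1-dominant spots, higher in 5 of 5 sections (0.27, SE 0.077, adjusted p = 0.0173). In the limma fit 23.5% of 13405 genes were called higher and 3.42% lower in FB-dominant spots, so that 1 of 36 higher and 0 of 36 lower was a smaller share of the members than of all genes. A further 9 members were higher at an unadjusted p of 0.05 and 0 lower, with no share of all genes given at that cut. The call of Psma2 was lost with median-of-ratios scaling (0.06, adjusted p = 0.601, the highest of the settings tried, whose lowest was 0.0167), without mitochondrial and haemoglobin genes in the total (0.16, adjusted p = 0.105) and without MI day 7 replicate 1 (0.27, adjusted p = 0.0616). The median over the constitutive subunits was 0.11 as scaled here, beside 0.18 over all genes, and -0.10 with median-of-ratios scaling. That scaling shifts all genes of a profile together, and with it 10.9% of all genes were called higher and 11.3% lower.

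By sub-complex the median of FB minus CM1 was 0.18 for the alpha ring, 0.09 for the constitutive beta ring, 0.11 for the base and 0.11 for the lid, and -0.08 for the 11S pair. Psme1 had 195, 164, 150, 140 and 141 CPM in FB-dominant spots, below its CM1-dominant value in 5 of 5 sections (-0.16, SE 0.075, adjusted p = 0.134), and it was called lower with the other scalings, by -0.37 (adjusted p = 0.00324) with median of ratios and -0.27 (adjusted p = 0.0248) without mitochondrial and haemoglobin genes. Of the other pathway genes, 6 of 7 class I genes passed as higher in FB-dominant spots, as did 4 of 8 genes of ubiquitin supply and shuttling, 2 of 6 genes of Nrf1 and its relatives and 1 of 16 further proteasome genes, with 0 lower. Markers of other cells moved with them in the same fit: 6 of 8 immune markers (median 1.13), both endocardial markers (median 2.09), 3 of 3 mural markers (median 0.59) and 6 of 6 fibroblast markers (median 1.67) were called higher, and 3 of 6 cardiomyocyte markers (median -0.33) lower. The part of these cells in the differences of the pathway genes was not tested. Among the pathway genes called higher were Tap1 (0.60, SE 0.17, adjusted p = 0.0147), the polyubiquitin gene Ubb (0.46, SE 0.073, adjusted p = 0.00031) and Nfe2l1 (0.22, SE 0.073, adjusted p = 0.0364). These counts depended on the scaling and on the spread used. In 1 fit over all classes with a shared spread, 3 class I genes, 3 ubiquitin genes, 0 of the Nrf1 group and 1 further proteasome gene passed as higher, with 0 lower. Of all genes, 11.1% were called higher and 1.15% lower in that fit. With median of ratios (10.9% of all genes higher and 11.3% lower) 4 class I genes and 1 ubiquitin gene passed as higher, 1 ubiquitin gene and 3 further proteasome genes as lower and 0 of the Nrf1 group. Without mitochondrial and haemoglobin genes in the total (14.5% of all genes higher and 5.71% lower), 5 class I genes, 1 ubiquitin gene and 0 of the other 2 lists passed as higher, with 0 lower. Ubb passed with either scaling (0.25, adjusted p = 0.0174, and 0.34, adjusted p = 0.00321), and Tap1 passed without mitochondrial and haemoglobin genes (0.50, adjusted p = 0.0405) but not with median of ratios (0.41, adjusted p = 0.0834), without MI day 7 replicate 2 (adjusted p = 0.0594) or in 1 fit over all classes (adjusted p = 0.159). Nfe2l1 passed with neither scaling (0.0058, adjusted p = 0.960, and 0.11, adjusted p = 0.260), nor when either sham section or either MI day 7 section was left out (adjusted p from 0.0712 to 0.123), nor in 1 fit over all classes (adjusted p = 0.218). The inducible subunits did not pass: Psmb8 differed by 0.39 (SE 0.23, adjusted p = 0.232), Psmb9 by 0.20 (SE 0.23, adjusted p = 0.543) and Psmb10 by 0.07 (SE 0.11, adjusted p = 0.677).

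The difference between FB- and CM1-dominant spots was next compared between MI and sham sections. Psmb8 in FB-dominant spots had 4.49, 4.32, 38.6, 12.1 and 5.61 CPM against 4.84, 5.44, 14.3, 5.46 and 6.02 CPM in CM1-dominant spots, so that it was lower in FB-dominant spots of both sham sections and of MI day 7 replicate 2. Psmb10 had 43.5, 53.1, 71.4, 50.7 and 66.1 CPM against 56.8, 59.1, 56.2, 41.0 and 56.4 CPM in CM1-dominant spots. Psmb10 had the lower value in FB-dominant spots of both sham sections and the higher one in those of all 3 MI sections. In the test of the change, MI minus sham of the FB minus CM1 difference, 0 members passed, as 0.0821% of all genes did, and 3 had an unadjusted p under 0.05, all above 0. These were Psmb10 (0.55, SE 0.16, adjusted p = 0.320), Psmb8 (0.95, SE 0.43, adjusted p = 0.566) and Psmd8 (0.32, SE 0.13, adjusted p = 0.522). A difference below 0 in both sham and above 0 in all 3 MI sections held for 5 members, as for 2.79% of all genes. The immune marker sum of FB-dominant spots was 127, 138, 1755, 251 and 542 CPM, and its part in these differences was not tested.

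In the other classes no member passed. Against CM1-dominant spots, 0 members were called in EC-dominant spots, where 2.4% of 13338 genes were. In EndoEC-dominant spots 0 were called, beside 12.1% of 13328 genes, and in Macrophage-dominant spots 0, beside 0.0682% of 13201 genes. In 1 fit over all classes the members called were again 0 in each, while of all genes 0% were called in EC-dominant spots, 4.52% higher and 0.35% lower in EndoEC-dominant spots and 4.38% higher and 0.846% lower in Macrophage-dominant spots. At an unadjusted p of 0.05 the limma fits had 3, 7 and 1 members higher and 0 lower, again without the share of all genes at that cut. Psmb8 in EC-dominant spots differed by 0.63 (SE 0.22, adjusted p = 0.130), Psma2 in EndoEC-dominant spots by 0.21 (SE 0.075, adjusted p = 0.0563) and Psmb9 in Macrophage-dominant spots by 1.06 (SE 0.38, adjusted p = 0.407). In the last of these the sections spread widely, since Psmb9 was 3.73, 6.83, 50.6 and 7.10 CPM in the 4 sections kept for the class.

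Across spots, Spearman's rho between the summed level of the 31 genes and the CM4 score was -0.34, -0.23, 0.22, 0.44 and 0.07, and with the CM1 score -0.07, -0.11, -0.36, -0.58 and -0.24. The rho with the CM1 score was below 0 in all 5 sections, and that with the CM4 score was below 0 in both sham sections and above 0 in the MI sections, where MI day 7 replicate 2 was near 0. No rho was computed for other genes, and the all-gene median of the CM4 minus CM1 difference changed sign in the same way. The points of a section share the scaling total and the data from which the scores were made. Between sub-complexes the rho was low throughout, from 0.04 to 0.20 for the alpha ring with the base and from 0.00 to 0.21 for the constitutive beta ring with the lid. For the inducible sum with the constitutive beta ring it was between 0.00 and 0.10.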

How the data were processed

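RNA on 5 Visium sections of mouse heart was analysed. Per the labels, reads were processed with Space Ranger against mm10 (GRCm38). The authors deposited raw UMI counts for the sham day 3 section and, for the other 4 sections, sctransform-corrected counts, a score rounded to whole numbers. The deposited metadata gave raw UMI counts and cell type scores as fractions that sum to 1, and spot positions in image pixels. A count test was not run, since it would have needed raw counts in every table. Each spot was scaled to CPM over 13711 shared genes and averaged per section or dominant score class (at least 20 spots, in at least 3 sections). Profiles were tested as log2(mean CPM + 1) in limma 3.58.1 (R 4.3.3, trended variance), genes kept at 1 CPM or more in at least 2 columns, two-sided tests, Benjamini-Hochberg adjustment over all genes tested and a threshold of 0.05. Fold changes are on that scale, which understates those of low genes. Class fits had section as a block. The fits were tested on simulated data. Python 3.11.15, scipy 1.17.1 and pandas 2.3.3 were used. Spots next to each other lay within 1.25 times the median spacing.

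Genes named were those past the threshold in any fit, the catalytic and inducible subunits, the 11S pair, Psma1, Psma5, Psmb3, Psmd1 and the subunits with the largest rise or fall of each sub-complex across days. Others, such as Psmd8 and Psma7, were named after their values were seen. The members, lists and rules were chosen with earlier results of these data known. Psmb11 and Nlrc5 were not in all tables and were not used here.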

Additional observations from a re-analysis of the deposited data

Results flagged for a closer look

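The sign of the CM4 minus CM1 difference was negative in both sham sections and positive in all 3 MI sections for 12 members. The change from sham to MI, with its adjusted p from the limma fit, was 0.32 for Psma2 (0.188), 0.40 for Psma6 (0.102), 0.28 for Psma7 (0.245), 0.26 for Psmb1 (0.268), 0.33 for Psmb3 (0.174), 0.28 for Psmb4 (0.233), 0.24 for Psmb5 (0.321), 0.37 for Psmb6 (0.132), 0.27 for Psmc1 (0.315), 0.30 for Psmc2 (0.301), 0.40 for Psmd2 (0.128) and 0.48 for Psmd8 (0.0777). None of the 12 passed. The same sign change held for 2097 of 13285 genes (15.8%), and the opposite one for 65 genes (0.489%) and 0 members.

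In FB-dominant spots the same sign change, against CM1-dominant spots, held for 5 members, with changes of 0.55 for Psmb10 (adjusted p = 0.320), 0.24 for Psmb2 (0.638), 0.80 for Psmb9 (0.641), 0.27 for Psmc3 (0.612) and 0.28 for Psmd4 (0.635). None of the 5 passed in the limma fit. The sign change held for 374 of 13405 genes (2.79%), and the opposite one for 136 genes (1.01%) and 0 members.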

How the results depend on the processing

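Of 405 values computed under other settings, 378 kept their direction and side of the threshold or stayed within their spread. Of the rest, 19 moved, 3 reversed, 3 were weaker and 2 were stronger. Leaving out 1 section at a time, members called higher in MI across days ranged from 0 to 2 (the 2 without sham day 7, where 2.48% of all genes were called higher), and members called lower at day 7 than at day 3 from 0 to 2 (the 2 without either sham section, where 4.85% and 4.95% of all genes were called lower). Members called higher in FB-dominant spots ranged from 0 to 2 and were 0 with median-of-ratios scaling, 0 without mitochondrial and haemoglobin genes, 2 with pooled spots (Psma2 and Psmb1) and 3 where the highest score had to reach 0.5 (Psma2, Psmd2 and Psmd6). Of all genes, 13.9% to 24.3% were called higher there when 1 section was left out, 10.9% with median of ratios, 14.5% without mitochondrial and haemoglobin genes, 23.7% with pooled spots, 24.5% with the higher score and 11.1% (with 1.15% lower) in 1 fit over all classes, where 1 member was called higher. Members called lower there were 4 with median of ratios (Psmb7, Psmd12, Psmd3 and Psme1) and 1 without mitochondrial and haemoglobin genes (Psme1), beside 11.3% and 5.71% of all genes. In EndoEC-dominant spots, members called higher ranged from 0 to 1 when 1 section was left out and were 3 with a highest score of at least 0.5 (Psma2, Psmc1 and Psmc2), beside 6.9% to 10.5% and 8.98% of all genes, and 2 were called lower with median of ratios (Psmd12 and Psme1), beside 6.26% of all genes. Psmb9 across days ranged from -0.036 (without sham day 3 or MI day 3) to 1.79 (without sham day 7), and Psme2 in CM4-dominant spots moved from -0.0043 to 0.0056 when summed with Psme2b. The inducible to constitutive ratio of MI day 3 over sham day 3 was 1.58, and 1.38 in CM1-dominant spots, 3.77 for Psmb8 over Psmb5, 4.74 for Psmb9 over Psmb6 and 1.19 for Psmb10 over Psmb7. At day 7 it was 1.02, and 1.42 for Psmb8 over Psmb5, 1.002 for Psmb9 over Psmb6 and 1.01 for Psmb10 over Psmb7. The cause was not tested.

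No paired analysis was possible because the groups share no replicate numbers other than 1 section each. Without either MI day 7 section the day 7 contrast had no residual degree of freedom. Leaving out spots under 1000 UMIs was added after seeing the data. With 1 section in 3 of the 4 groups, a difference of 1 section cannot be told apart from one of its group.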
